A study of Caenorhabditis elegans with 2 samples.

Results

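Small nuclear RNA (snRNA) genes were examined for LIN-11 ChIP-seq summits. All genes of biotype snRNA on the nuclear chromosomes of assembly WBcel235, which is ce11, were taken from the Ensembl annotation with 200 bp on either side. This gave 129 genes among 46890 nuclear genes of all classes. RefSeq's annotation of the same assembly placed all 129 at the same coordinates with the same biotype. A gene was counted as listed where the summit of a deposited region, its point of highest signal, fell within the gene or its flanks.

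The samples formed 1 group of 2 biological replicates, and no other condition was compared. Late Caenorhabditis elegans embryos of mixed sex, aged 4.25 hours per the labels and synchronised by egg bleaching, came from strain OP62, with genotype unc-119(ed3) III; wgIs62. These worms carry LIN-11, a LIM homeodomain transcription factor, with GFP and FLAG at its C-terminus, and sonicated chromatin was precipitated with an antibody against GFP. Whole embryos were used, so each value averages over all cell types, and the genotype as labelled names no mutation of the worm's own lin-11.

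The RNA components of the spliceosome, which removes introns from pre-messenger RNA, are the U1, U2, U4, U5 and U6 snRNAs. Nematodes also carry spliced leader RNAs, SL1 and SL2, which donate a short leader to the 5′ end of many messages by trans-splicing, with SL2 used mainly for downstream genes of operons. RNA polymerase III transcribes U6, and RNA polymerase II the other types. Both depend on the SNAPc complex, which binds a proximal sequence element upstream of the gene, and U6 genes add a TATA box. Most snRNA genes are present in several copies whose products are the same or nearly so.

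Neither annotation gives a U number to most of these genes, so types were assigned from names and sequence. The gene names gave 18 SL2 genes (sls-2), 12 SL1 genes (sls-1) and 10 SmY genes (smy), the last for an RNA linked to trans-splicing. The remaining genes were joined where at least 70% of bases matched over at least 70% of the shorter gene. A family was called after a spliceosomal RNA where most members held a textbook element of it. These were ACAGAGA in 22 of 24 U6-type genes, ACTTACCTG in 12 of 14 U1-type genes, GTAGTA in 19 of 20 U2-type genes and CCTTTTAC in 11 of 12 U5-type genes. A family of 5 genes around T11F9.15 kept that name. All 5 held TTGCGC, the reverse complement of GCGCAA, which 22 of the 24 U6-type genes held; U4 is known to pair with U6, but no type was assigned. The other 14 genes were left without a type.

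Of the 129 snRNA genes, 10 had a summit of a reproducible region, that is, a region of the list the authors thresholded by irreproducible discovery rate. This was 7.75% (exact Clopper-Pearson 95% interval 3.78 to 13.8, counting error only), against 1.78% of all nuclear genes and 0.269% of windows of 509 bp, the median width of a gene with its flanks. In the longer list called on both replicates together, here the pooled list, 27 snRNA genes were listed. That share, 20.9% (14.3 to 29.0), was set against 24.0% of all nuclear genes, many of them longer, and 9.91% of the 509 bp windows. The pooled share was thus near that of all genes, and the difference was not tested. Replicate 1 listed 27 snRNA genes (20.9%, against 24.9% of all genes) and replicate 2 listed 26 (20.2%, against 23.2%). Both replicate lists held 20 of them (15.5%, interval 9.73 to 22.9), against 14.2% of all genes. No list held a summit at 96 of the 129 genes.

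Among other small RNA classes the reproducible shares lay on either side of that of snRNA genes. For tRNA the share was 31.2% over 612 genes (27.6 to 35.0), for snoRNA 14.7% over 346 (11.2 to 18.9) and for miRNA 1.53% over 261 (0.419 to 3.88). In the pooled list the shares were 59.2% for tRNA, 35.8% (30.8 to 41.1) for snoRNA and 16.1% (11.9 to 21.1) for miRNA genes. That of snRNA genes was 20.9% (14.3 to 29.0). In percentage points it lay further under the snoRNA share there, but the shares of all these classes were larger in that list. The intervals treat genes as independent, which identical copies and overlapping genes are not. These differences were not tested.

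The 10 genes fell in 4 types. They were 4 of 24 U6-type genes, 4 of 18 SL2 genes, 1 of 14 U1-type genes and 1 of 12 U5-type genes. No reproducible summit stood at the 20 U2-type genes, the 12 SL1 genes, the 10 SmY genes, the 5 genes of the T11F9.15 family or the 14 other genes. In the pooled list the counts were 6 U6-type, 6 SL2, 7 U1-type, 4 U5-type and 2 U2-type genes, with 1 each of the T11F9.15 family and the other genes. With so few genes per type the intervals were wide, 4.74 to 37.4% for U6-type and 6.41 to 47.6% for SL2, against 0 to 16.8% for U2-type genes.

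**Figure D1:**
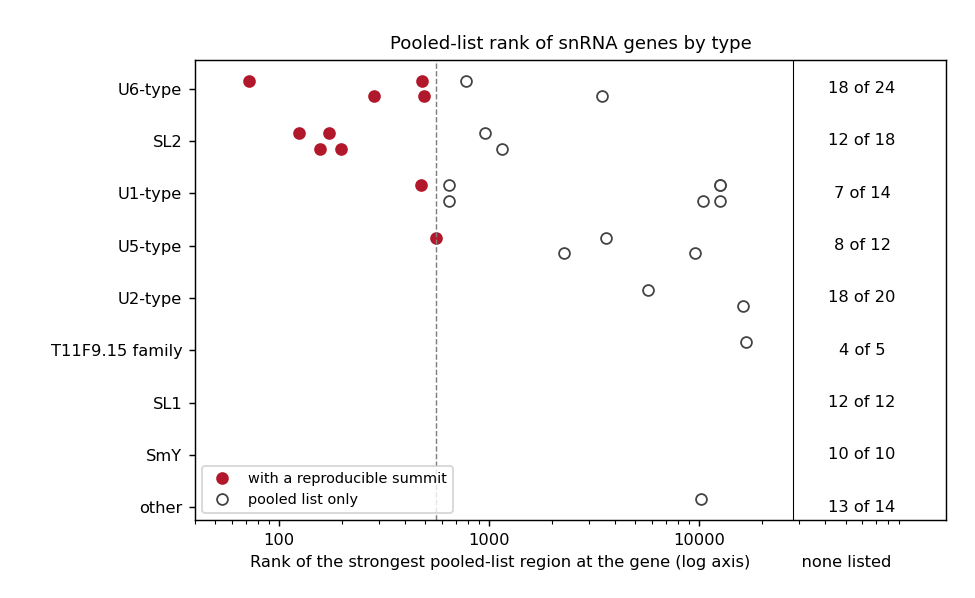
Rank, on a log axis, of the strongest pooled-list region at each snRNA gene, by type; filled red circles are genes with a reproducible summit, open circles genes listed in the pooled list only, and the column at the right counts genes with no pooled summit. The dashed line stands at rank 560, the length of the reproducible list, and the U6-type and SL2 genes hold 8 of the 10 filled circles, while no SL1 or SmY gene has a circle.

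Ranks below count regions of a list by falling signal, the value the authors' peak caller gave each region, so rank 1 is the strongest. The reproducible list held 560 regions, the pooled list 20692, and the lists of replicates 1 and 2 held 21441 and 18735. The 560 reproducible regions were the strongest 560 of the pooled list. A place in the reproducible list thus followed the pooled signal and did not require a high rank in each replicate. The gene lin-11 itself had 2 reproducible summits within 1000 bp, the stronger at rank 212. No share of comparable genes was set beside this, and it does not show which protein was precipitated.

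U6 is the snRNA at the catalytic centre of the spliceosome, and the U6-type genes held the highest rank. Each of the 4 with a reproducible summit stood on chromosome III and had the same RNA sequence, though F54D8.7 is annotated at 101 bp and the others at 102 bp. Of the 32-base words within each gene, 0% occur once in the genome. With the flanks the share was 62.2 to 83.9%. Whether the copy and the exact base of a summit inside these genes rest on uniquely placed reads was not tested.

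The bases before these genes differed. The 100 bases before each start are given 5′ to 3′ on the strand of the gene. They are shown because the genes share an RNA sequence and the summits of 2 of them lay within 10 bp of the start. Nearest the start C28A5.7 and R07E5.16 were almost the same, so these 2 copies differed mainly further upstream. Capitals mark TATATAA, the kind of word found at U6 promoters, 15 to 40 bases before the start. They also mark TGTC, which most snRNA upstream sequences held, 35 to 60 bases before it. In RefSeq's ce11 genome their positions were chrIII:10989579-10989678 (plus) for W05B2.8, chrIII:5080899-5080998 (minus) for F54D8.7, chrIII:4426956-4427055 (minus) for C28A5.7 and chrIII:4414085-4414184 (plus) for R07E5.16.
W05B2.8: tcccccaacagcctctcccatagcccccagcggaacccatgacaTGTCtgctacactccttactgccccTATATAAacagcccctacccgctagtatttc
F54D8.7: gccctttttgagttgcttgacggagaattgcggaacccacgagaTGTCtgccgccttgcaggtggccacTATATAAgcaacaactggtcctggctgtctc
C28A5.7: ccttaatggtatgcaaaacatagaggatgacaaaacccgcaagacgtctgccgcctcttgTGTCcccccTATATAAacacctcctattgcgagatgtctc
R07E5.16: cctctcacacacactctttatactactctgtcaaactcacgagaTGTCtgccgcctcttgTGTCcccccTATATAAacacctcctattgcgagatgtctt

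W05B2.8 (WBGene00014543, chrIII:10989679-10989780), inside the dynein heavy chain gene dhc-4 on the same strand, had 2 reproducible summits. The stronger, at rank 72 with signal 430, stood 8 bp downstream of the gene start, and its region ranked 54 in replicate 1 and 101 in replicate 2. The summits of both replicates lay within 1 bp of it. The weaker, at rank 146, stood 212 bp from the start, beyond the 3′ end, and its regions ranked 109 in replicate 1 and 206 in replicate 2. The regions at this gene were 258 and 214 bp wide, against a median of 430 bp over the reproducible list.

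F54D8.7 (WBGene00195000, chrIII:5080798-5080898) had its summit 4 bp after the start, at rank 284 with signal 180. Its region ranked 481 in replicate 1, where the summit lay 77 bp further into the gene, and 179 in replicate 2, where it lay on the same base. C28A5.7 (WBGene00014266) and R07E5.16 (WBGene00014484) stand 12568 bp apart. At C28A5.7 the reproducible summit, rank 480, lay 163 bp after the start and so beyond the gene. The covering regions ranked 478 in replicate 1 and 549 in replicate 2. A further pooled summit of C28A5.7, 43 bp before the start, ranked 591, just past the end of the reproducible list. R07E5.16 had its summit 94 bp into the gene at rank 491, with ranks of 489 in replicate 1 and 1739 in replicate 2. Both replicates thus held W05B2.8 among their strongest 560 regions, whereas R07E5.16 was among them in replicate 1 and not in replicate 2.

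The same RNA sequence occurred at 17 of the 24 U6-type genes, each with its own upstream sequence. Of these 17, 6 had a pooled summit and 4 a reproducible one, while the 7 U6-type genes of other sequence had neither. By chromosome, 4 of the 6 copies on III were reproducible, against 0 of 10 on IV and 0 of 1 on V, with no share over all genes of each chromosome set beside them. The remaining listed copies were Y9C9A.111 on IV, with its summit 2 bp after the start at pooled rank 777, and F54C8.9 on III at 3473. All 6 listed copies had a summit in both replicates. TATATAA was present upstream of 14 of the 17 copies and TGTC at 35 to 60 bases before the start of 16. Most unlisted copies thus carried both words, as all 4 reproducible ones did.

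SL2 genes were next in rank. Their RNAs carry a leader, taken here as the bases before the first AG and GT of the splice site, of 21 to 23 bases. The 18 genes held 11 different leaders. The leader of sls-2.1 was shared by 4 genes, of which 3 had a reproducible summit (sls-2.1, sls-2.2 and sls-2.4), against 1 of the 14 genes with other leaders (sls-2.9). The exception among the 4 was sls-2.3, which was in no list. RNA bases 21 to 110 of sls-2.1, sls-2.2 and sls-2.3 are shown for comparison of listed and unlisted copies, with the last 2 leader bases, before the splice site, in capitals. They come from chrII:5844885-5844974 (plus), chrII:5543618-5543707 (plus) and chrII:5544164-5544253 (minus) of ce11 (RefSeq's genome). The whole gene of sls-2.8, listed at a lower rank, follows with its leader, the bases before the splice site, in capitals (chrIII:12250465-12250575, plus).
sls-2.1: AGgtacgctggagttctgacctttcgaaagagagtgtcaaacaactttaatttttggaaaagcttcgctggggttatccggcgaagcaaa
sls-2.2: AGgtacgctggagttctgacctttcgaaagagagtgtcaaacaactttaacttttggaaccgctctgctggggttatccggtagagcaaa
sls-2.3: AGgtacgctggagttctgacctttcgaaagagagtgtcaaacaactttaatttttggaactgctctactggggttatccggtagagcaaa
sls-2.8: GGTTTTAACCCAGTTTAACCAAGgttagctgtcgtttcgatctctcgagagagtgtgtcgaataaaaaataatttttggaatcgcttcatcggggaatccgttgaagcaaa

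Over all 110 bases, sls-2.2 and sls-2.3 differed at 3 bases and sls-2.1 differed from each at 8. The sequences before the genes were less alike, and are given for the same 3 genes with TGTC at 35 to 60 bases before the start in capitals. They stand at chrII:5844765-5844864 (plus), chrII:5543498-5543597 (plus) and chrII:5544274-5544373 (minus).
sls-2.1: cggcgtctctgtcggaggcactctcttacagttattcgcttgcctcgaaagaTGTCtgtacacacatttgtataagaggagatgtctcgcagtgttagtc
sls-2.2: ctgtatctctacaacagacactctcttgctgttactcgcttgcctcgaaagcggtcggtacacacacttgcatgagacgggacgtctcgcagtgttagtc
sls-2.3: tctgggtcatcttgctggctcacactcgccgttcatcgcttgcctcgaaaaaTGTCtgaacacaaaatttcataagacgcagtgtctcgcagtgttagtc

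sls-2.4 (WBGene00004836) lies on chromosome I outside any protein-coding gene and had 2 reproducible summits. The stronger ranked 125 with signal 305 and stood 83 bp into the gene, and its region ranked 131 in replicate 1 and 114 in replicate 2. The weaker ranked 418 and stood 291 bp from the start, with ranks of 587 in replicate 1 and 528 in replicate 2. Replicate 1 placed that summit 317 bp from the start, outside the 200 bp flank.

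sls-2.2 (WBGene00004834, chrII:5543598-5543707) ranked 173 with signal 247. Its summit lay 123 bp after the start, in the bases just beyond the 3′ end, and its region ranked 158 in replicate 1 and 223 in replicate 2. Its convergent neighbour sls-2.3, 457 bp away, was 443 bp from the same summit and was the nearest of all unlisted snRNA genes to a reproducible summit. sls-2.1 (WBGene00004833, chrII:5844865-5844974) ranked 198 with signal 227, with the summit 100 bp after the start. Its region ranked 181 in replicate 1 and 211 in replicate 2, and the replicate summits lay 1 and 5 bp away. The ranks of both genes thus moved little between replicates.

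At sls-2.9 (WBGene00004841), on chromosome I, the summit ranked 158 with signal 266 and lay 173 bp before the start, inside the tRNA gene M01E5.t1, which ends 132 bp from sls-2.9. The distance of this summit to the tRNA gene was therefore 0 bp. When each summit was given only to its nearest small RNA gene, sls-2.9 dropped out and 9 snRNA genes remained. The other SL2 genes in the pooled list were sls-2.14 at rank 961, with its summit 30 bp before the start, and sls-2.8 at rank 1156, with its summit 25 bp before it.

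U1 snRNA pairs with the 5′ splice site, and sup-6 and sup-39 are U1 genes known from suppressors of splice-site mutations. Of the 14 U1-type genes, 7 were in the pooled list and 3 in both replicate lists. These counts are of genes and not of separate sites, since mir-1831 overlaps sup-39 and T27E4.12 overlaps T27E4.22. mir-1831 was in both replicate lists through different summits, at 191 bp from its start in replicate 1 and at -15 bp, before the start, in replicate 2.

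sup-6 (WBGene00006315, chrII:12944803-12944967, minus) lies inside F58G1.7 on the same strand. Its first 121 bases (chrII:12944847-12944967) are shown first, with ACTTACCTG, the element that pairs with the splice site, in capitals. The 100 bases before its start (chrII:12944968-12945067) follow with TGTC in capitals.
sup-6 gene: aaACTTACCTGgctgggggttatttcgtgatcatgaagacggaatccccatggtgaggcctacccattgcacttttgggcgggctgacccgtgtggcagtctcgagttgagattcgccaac
sup-6 upstream: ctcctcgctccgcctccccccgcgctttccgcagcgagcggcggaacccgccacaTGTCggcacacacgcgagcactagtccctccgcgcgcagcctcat

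The reproducible summit of sup-6 ranked 479 with signal 129 and lay 41 bp into the gene. The replicates differed here. Replicate 1 ranked the region 370, with its summit 40 bp into the gene, whereas in replicate 2 the region with the nearest summit, 67 bp into the gene, ranked 6072. A second region of replicate 2 had its summit 298 bp from the start at rank 1109. sup-39 had pooled summits 206 bp after and 8 bp before its start, at ranks 645 and 1469, and mir-1831, an annotated snRNA gene within sup-39, shared them. The other U1-type genes of the pooled list, T27E4.11, H27M09.6 and the overlapping T27E4.12 and T27E4.22, ranked between 10537 and 12655. None of those 4 had a summit in both replicates.

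U5 snRNA aligns the exons at the splice sites. The U5-type gene F32B5.9 (WBGene00044927), on chromosome I inside the cathepsin Z gene cpz-1 on the opposite strand, stood at rank 559 of 560. Its summit lay 13 bp before the gene start with signal 118, just above the lowest signal of the reproducible list, 117. Its region ranked 576 in replicate 1 and 1823 in replicate 2, so neither replicate held it among its own strongest 560. F38E11.10 followed at pooled rank 2286, with a summit in replicate 1 and none in replicate 2. ZK897.2 ranked 3612 and F07C6.5 ranked 9553.

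U2 snRNA pairs with the intron branch point. Only F08G2.10 and F08G2.9, at pooled ranks 5760 and 16235, were listed among 20 U2-type genes, and both had a summit in each replicate list. At F08G2.9 these were different positions. The summit lay at -5 bp, before the start, in replicate 1 (rank 13383) and at 365 bp in replicate 2 (rank 15793). Beyond the flank, the U2-type genes nearest to a reproducible summit were F08G2.9 at 1425 bp, C05G6.4 at 3585 bp, F08G2.10 at 5021 bp and T14B4.10 at 5396 bp. F08G2.9 and F08G2.10 lay on either side of the same summit. In the T11F9.15 family C52E4.8 ranked 16770, and among untyped genes F35B3.10, on the X chromosome, ranked 10304.

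The 12 SL1 genes were in no list. SmY genes had no pooled summit, though smy-1 was listed at rank 18427 in replicate 1 alone and smy-10 at rank 5463 in replicate 2 alone. An SL1 gene, sls-1.10 (chrV:17120694-17120791, minus), and smy-10 (chrIV:13601636-13601725, plus) are shown to contrast these trans-splicing RNAs with SL2. Capitals mark the leader of SL1 and, in SmY, the U-rich ATTTTTG of the kind Sm proteins bind.
sls-1.10: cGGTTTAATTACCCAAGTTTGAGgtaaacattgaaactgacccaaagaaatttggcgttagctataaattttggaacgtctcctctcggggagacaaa
smy-10: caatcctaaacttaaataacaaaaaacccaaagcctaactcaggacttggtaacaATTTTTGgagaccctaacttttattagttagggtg

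These families differed in how far reads could be placed. As a measure from the genome alone, the share of 32-base words of each gene and its flanks that occur once in the genome was computed on both strands; over the genome it was 91.4%. SL1 genes had a median share of 0% (0 to 20.6), since they lie in repeated units, so the lack of a summit there cannot be told apart from a lack of uniquely placed reads. How the authors placed repeated reads was not stated. SmY genes had a median of 99.4% (91.3 to 100), U6-type genes 75.2%, SL2 genes 89.9%, U1-type genes 74.9%, U5-type genes 86.0% and U2-type genes 58.4%.

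Over all types, the 10 genes with a reproducible summit had a median of 86.7% unique words (62.2 to 95.4), against 80.1% (0 to 100) for the 96 genes in no list. Of the 34 genes under 60%, none was reproducible and 4 were in the pooled list. Of the 27 between 60 and 80%, 2 were reproducible and 9 in the pooled list, and of the 68 at 80% or more, 8 were reproducible and 14 in the pooled list. The part of read placement in the presence of a summit was not tested.

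**Figure D2:**
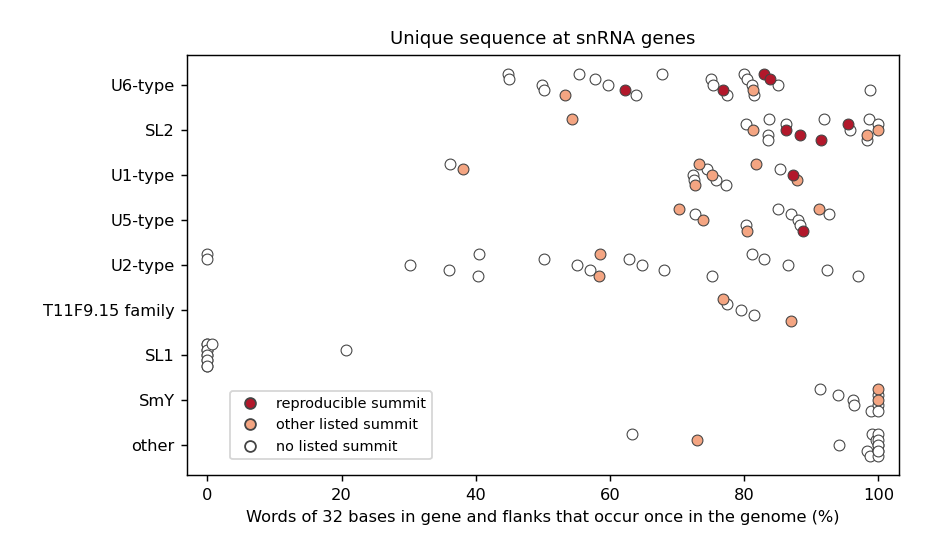
Share of 32-base words in each snRNA gene and its 200 bp flanks that occur once in the genome, by type; 1 circle is 1 gene, red with a reproducible summit, light orange with a summit in another list only, white with none. The SL1 genes lie between 0 and 20.6% and the SmY genes at 91.3% or more, and both types lack a red circle.

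Summit positions were spread over the genes. Of the 12 reproducible summits, 2 lay before the gene start, 6 within the gene and 4 beyond its end. The median was 88.5 bp after the start, with a range of -173 to 291 bp (negative is upstream), and the median length of an snRNA gene was 109 bp. With 1 summit per group of genes identical as annotated, the median was 24.5 bp. In that count F54D8.7, annotated at 101 bp, stood apart from the U6-type copies annotated at 102 bp. In the pooled list, where overlapping genes share summits, 32 summits gave 35 pairs of gene and summit. Of these pairs 12 had the summit before the start, 11 within the gene and 12 beyond it, with a median of 49 bp. The U6-type genes W05B2.8 and F54D8.7 had their strongest summits near the start, whereas sls-2.1 and sls-2.2 had theirs near the 3′ end. Positions also differed within a type. The U6-type genes R07E5.16 and C28A5.7 had summits at 94 and 163 bp, and the SL2 gene sls-2.9 at -173 bp. The median therefore describes no common position.

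**Figure D3:**
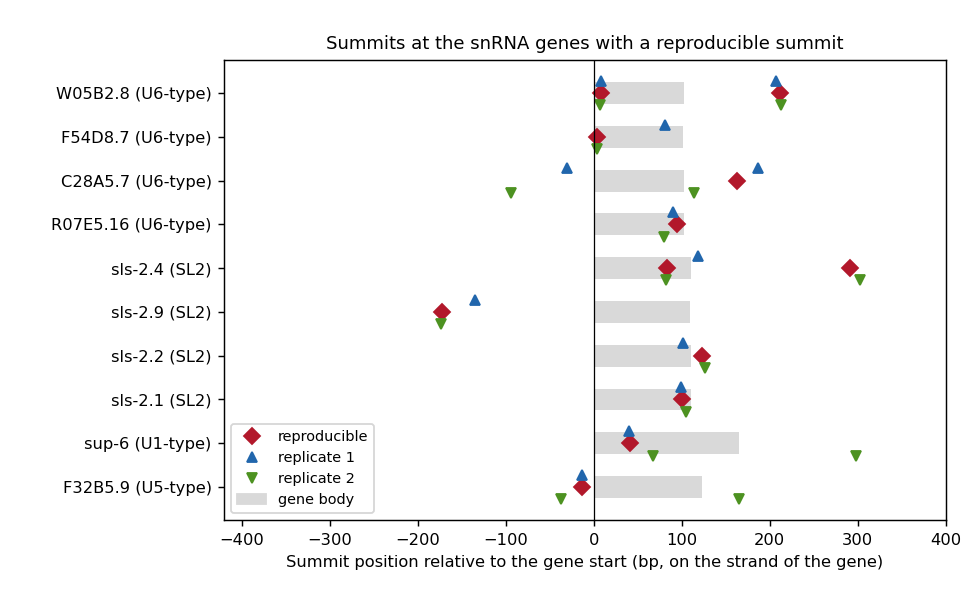
Position of each summit relative to the gene start, in bp on the strand of the gene, at the 10 snRNA genes with a reproducible summit; grey bars are gene bodies, diamonds reproducible summits, upward triangles replicate 1 and downward triangles replicate 2, for summits within the 200 bp flanks. The replicate summits of W05B2.8 and sls-2.1 lie within 5 bp of the reproducible ones, while the replicate summits of C28A5.7 and sup-6 are spread.

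Every one of the 12 reproducible summits was covered by a region in each replicate. The nearest summit lay a median of 13.5 bp away in replicate 1 (at most 77) and 4.0 bp in replicate 2 (at most 49). Among the strongest 560 regions of its own list, replicate 1 held 10 of the 12 and replicate 2 held 9. Taken alone at that length, each replicate gave 9 snRNA genes, and 7 were the same genes. Replicate 1 added sup-6 and R07E5.16, and replicate 2 added sup-39 and Y9C9A.111.

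**Figure D4:**
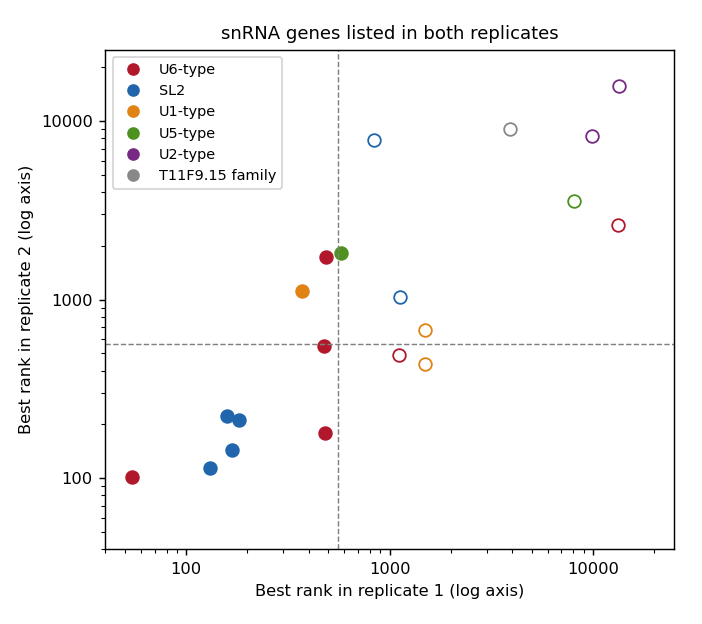
Best rank of each snRNA gene in replicate 1 against its best rank in replicate 2, both on log axes, for the 20 genes listed in both; colour gives the type, filled circles have a reproducible summit, and dashed lines stand at rank 560. Of the 10 filled circles 7 lie under 560 on both axes, and R07E5.16, sup-6 and F32B5.9 rank past 1000 in replicate 2.

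The upstream sequences of snRNA genes shared words that most protein-coding genes lack. TGTC at 35 to 60 bases before the start was present in 90 of 129 snRNA genes (69.8%), against 7.24% of 29773 upstream sequences of protein-coding starts. The longer TGTCGG stood within 100 bases of 42 snRNA genes (32.6%), against 0.887%, and AACCCG of 43 (33.3%), against 0.873%. TATATAA stood upstream of 18 of the 129 snRNA genes, against 2.38% of protein-coding starts, and 15 of the 18 were U6-type. These counts are of the sense strand, and TGTC is part of TGTCGG. Of 119 distinct snRNA upstream sequences 30 held CGGAACCC, against 0.0369% of the protein-coding ones. CGGAACCC was picked as the most frequent word of its length in these same snRNA sequences. Its higher share there was therefore favoured by the choice and is only descriptive. TGTCGG lies within a frequent word of the same length as CGGAACCC in these sequences, and so does AACCCG. These shorter words and the window for TGTC were not checked in separate sequences. Their higher shares are therefore also only descriptive. Of the 10 genes with a reproducible summit 9 held TGTC in that window, and of the 119 others 81 did, so the word was common with and without a summit.

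TAATTA, the core word that homeodomain proteins are known to favour, was upstream of 4 of 129 snRNA genes, against 6.09% of protein-coding starts, none of them with a reproducible summit. It was absent from the 101 bp around all 12 reproducible and all 32 distinct pooled summits. Over the whole list, 9 of 539 nuclear reproducible summits had it. This says only that these letters were not in these windows. GC content around the 12 summits ranged between 29.7 and 54.5%, with a median of 41.1%.

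By chromosome, the reproducible genes were 3 of 16 on I, 3 of 16 on II and 4 of 13 on III, against 0 of 41 on IV, 0 of 40 on V and 0 of 3 on X. No share over all genes of each chromosome was set beside these counts. Whether they differ from those of other genes on the same chromosomes was not tested. The type and the chromosome varied together, since all SL1 genes and the T11F9.15 family lie on V and 11 of 12 U5-type genes on IV. Genes inside a protein-coding gene were 5 of the 10 with a reproducible summit and 58 of the 119 others. The nearest protein-coding start was a median of 1046 bp from the 10 genes (482 to 3291), against 1158 bp (11 to 23327) for the 119.

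Protein genes that make or use snRNAs were described with the same lists. Of 100 named genes 84 were found in the annotation, and 4 had a reproducible summit within 1000 bp of a start, 4.76% (1.31 to 11.7), against 2.10% of all protein-coding genes. By group, the reproducible counts were 1 of 11 Integrator genes, which form the complex that cuts the 3′ end of snRNAs, 2 of 15 Sm and LSm genes, which form the ring on snRNAs, and 1 of 35 other splicing genes. Among 15 genes of the snRNA transcription list and 8 of snRNP assembly and cap there were 0. The snRNA transcription list held SNAPc and RNA polymerase III factors and, besides these, sna-1, sna-2 and sut-2.

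ints-8, an Integrator subunit on chromosome I, had its summit inside the gene, 869 bp after the nearest of its annotated transcript starts. That summit ranked 64, with ranks of 84 in replicate 1 and 41 in replicate 2. mog-5, an RNA helicase of splicing, had its summit 162 bp before the start at rank 356 (378 in replicate 1 and 447 in replicate 2). The other 2 summits lay nearer to another gene's start. The summit 424 bp before snr-1, an Sm protein, ranked 107 and was 187 bp from the start of snx-13. The summit 918 bp before lsm-3, an LSm protein, ranked 374 and was 39 bp from the start of Y62E10A.23. The strongest pooled summit of the assembly genes, at smn-1, the C. elegans SMN gene, ranked 749, with ranks of 449 in replicate 1 and 18244 in replicate 2. It fell inside a miRNA gene and was 56 bp from the start of klp-16, against 160 bp from that of smn-1. The strongest pooled summit of the snRNA transcription list, at snpc-3.4, ranked 2235.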

How the data were processed

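The analysis used 4 region lists that the authors deposited for LIN-11-GFP ChIP-seq in 2 biological replicates of 1 group: 1 list per replicate, 1 pooled and 1 reproducible. Per the deposited notes, all are on ce11, and the replicates share 1 control alignment. Not given in the sources used here were the aligner, the peak caller and their thresholds. Regions were ranked within a list by the deposited signal value, whose scale is not stated. The deposited −log10 q value was not used for ranking, and the deposited summit offset was added to the region start. Read depth is unknown, so intervals cover counting error only. No test was made, as there is 1 group.

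Gene models came from Ensembl release 115 and sequence from RefSeq WBcel235. Genes are named by RefSeq symbol, since Ensembl repeats names between copies. Python 3.11.15, NumPy 2.4.6, SciPy 1.17.1, Biopython 1.88 and Matplotlib 3.10.9 were used, and summit assignment was tested on simulated summits. Named genes were those with a reproducible summit, the 2 of highest pooled signal per type, the 5 nearest beyond 200 bp, lin-11, and the leading gene of each pathway list; others were named after their values were seen. The members and lists were chosen with earlier results of these data known. Where neither annotation named a product type, types were set by sequence after the files were seen. Printed gene sequences are cut where a run of 32 bases also stands on chromosome I. The shared U6-type gene sequence is not reported here.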

Additional observations from a re-analysis of the deposited data

How the results depend on the processing

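With no flank, the genes with a reproducible summit numbered 6 (10 in the report), their summits 6 (12), genes in the pooled list 11 (27) and genes in both replicate lists 7 (20). The stronger part of the reproducible list by signal left 5 genes, 6 summits and 2 types (4). Among the 57 alternatives 41 kept counts within 1.5 times or medians within the replicate spread. The median offset of reproducible summits was 24.5 bp with 1 summit per group of genes identical as annotated and 62.0 bp with 1 per gene (88.5). F54D8.7 counted as a group of its own there. Leaving out a replicate gave 94.5 to 105 bp. The median offset of pooled summits was 45.0 bp with a 100 bp flank, 79.0 bp with 500 bp and 50.5 bp per group of genes identical as annotated (49). Either replicate alone gave 67 to 68 bp. Pathway genes with a summit within 500 bp numbered 2 (4). Leaving out a replicate gave 9 genes either way, 10 to 11 summits and 3 types, without U5-type either way. Leaving out genes that overlap another snRNA gene, chosen after seeing the data, kept 10. No paired analysis was possible because there is 1 group. Read depth is unknown, so a missing summit may lie under the detection limit.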
